A study of Mus musculus with 8 samples.

Results

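Medullary thymic epithelial cells (mTEC, 3 arrays) were compared with cortical thymic epithelial cells (cTEC, 2 arrays) in their microRNAs. These 5 of the 8 arrays of the series, all on a single slide, were chosen by the cell population that the labels give, and the members compared were the 1040 mouse miRNAs of the deposited table. Of these, 309 were tested, namely those well above background on at least 2 of the 8 arrays. All cells came from wildtype female NOD mice of 4 weeks, the strain that develops autoimmune diabetes, with no transgene, deletion or treatment, and 10 to 12 thymi were pooled for each isolation. Both epithelial populations were sorted as CD45- EpCAM+ MHC II+ cells, cTEC as Ly51+ and mTEC as Ly51-, and the remaining 3 arrays hold sorted CD45+ EpCAM- cells, which are of the blood lineage. A replicate is thus a sorted pool, the mTEC pool mixes all maturation stages, and in such bulk RNA fewer cells of a type and less RNA per cell cannot be told apart.

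The thymic cortex and medulla are the compartments in which developing T cells are tested in turn. Cortical epithelium presents self peptides for positive selection, and medullary epithelium displays tissue-restricted antigens, many under the control of Aire, and removes or diverts self-reactive cells. A miRNA is a short RNA that guides Argonaute proteins to messenger RNAs through its seed, bases 2 to 8 from its 5′ end, so miRNAs with the same seed share many targets. The miR-200 family and miR-205 are known as keepers of the epithelial state through repression of Zeb1 and Zeb2, miR-203 as a miRNA of stratified epithelium that restrains p63, and miR-34a as a target of p53.

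The miRNAs on which the comparison turned are shown first, as mature sequences of RefSeq (GRCm38.p6) with the seed in capitals. A same-named RefSeq entry matched the array probe for 211 of the 309 tested miRNAs, for 41 of the 50 that were higher in mTEC and for 15 of the 20 that were lower. The first set holds epithelial miRNAs and miR-34a, all higher in mTEC, with the 2 seeds of the miR-200 family side by side.
miR-200b: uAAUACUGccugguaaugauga
miR-200c: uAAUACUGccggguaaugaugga
miR-429: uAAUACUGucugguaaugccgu
miR-200a: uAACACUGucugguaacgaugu
miR-141: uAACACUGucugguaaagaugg
miR-205: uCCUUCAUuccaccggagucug
miR-203: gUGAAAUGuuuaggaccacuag
miR-34a: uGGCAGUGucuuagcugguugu
The second set has 1 seed in common, that of miR-17. All of its 6 tested carriers were higher in mTEC, against 16.2% of all tested, though not all kept the call with quantile normalization.
miR-17: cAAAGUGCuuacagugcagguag
miR-20a: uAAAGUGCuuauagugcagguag
miR-93: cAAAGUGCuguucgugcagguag
miR-106b: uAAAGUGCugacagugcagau
The third set was lower in mTEC and is shown for its base composition, which is rich in G.
miR-3077*: cUGCGGACgggugggcgggcaggcc
miR-1224: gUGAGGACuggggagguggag
miR-149*: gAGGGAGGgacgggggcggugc
miR-762: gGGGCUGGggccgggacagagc
miR-2861: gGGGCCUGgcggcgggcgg
miR-705: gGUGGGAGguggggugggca

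In the same annotation miR-200b (chr4:156055685-156055706), miR-200a (chr4:156054911-156054932) and miR-429 (chr4:156053916-156053937) lie on the minus strand within the span of the long noncoding gene Gm13648. The mature sequences of miR-200c (chr6:124718324-124718346) and miR-141 (chr6:124717917-124717938), also on the minus strand, lie within no other annotated gene. miR-205 (chr1:193507503-193507524, minus strand) lies within its noncoding host gene Mir205hg, while miR-203 (chr12:112130927-112130948, plus strand) and miR-34a (chr4:150068473-150068494, plus strand) lie within the span of no other gene. Among the miRNAs lower in mTEC, miR-1224 (chr16:20604452-20604472, plus strand) lies within Vwa5b2 and miR-149* (chr1:92850421-92850442, plus strand) within Gpc1.

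The cTEC arrays were dimmer than the mTEC arrays, which bears on every value below. Of the mouse miRNAs, 122 and 98 were well above background on the 2 cTEC arrays, against 286, 236 and 325 on the mTEC arrays and 169 to 229 on the CD45+ arrays. The 75th percentile of the background-subtracted signal over the 65 mouse miRNAs that all 8 arrays measured well above background was 2910 and 1364 in cTEC and 11503, 4213 and 6408 in mTEC. Control spots of the array did not follow this order, since the bright corner spots had median signals of 55710 and 43608 on the cTEC arrays and of 30305 to 48196 on the mTEC arrays. Signals divided by this percentile are called scaled signals. The lowest scaled signal well above background, the detection limit of an array, was 342 and 621 in cTEC and 67.0, 223 and 97.9 in mTEC. Scaled signals under 621, the highest of these limits and that of cTEC replicate 2, were set to it before log2 fold changes were fitted, so a fold change against a group near this floor is understated. No miRNA of the 1040 was well above background on both cTEC arrays and on 0 mTEC arrays, whereas 54 were so on all 3 mTEC arrays and on 0 cTEC arrays. Of those 54, 10 exceeded the floor on every mTEC array. The cause of the dimness was not tested.

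**Figure D1:**
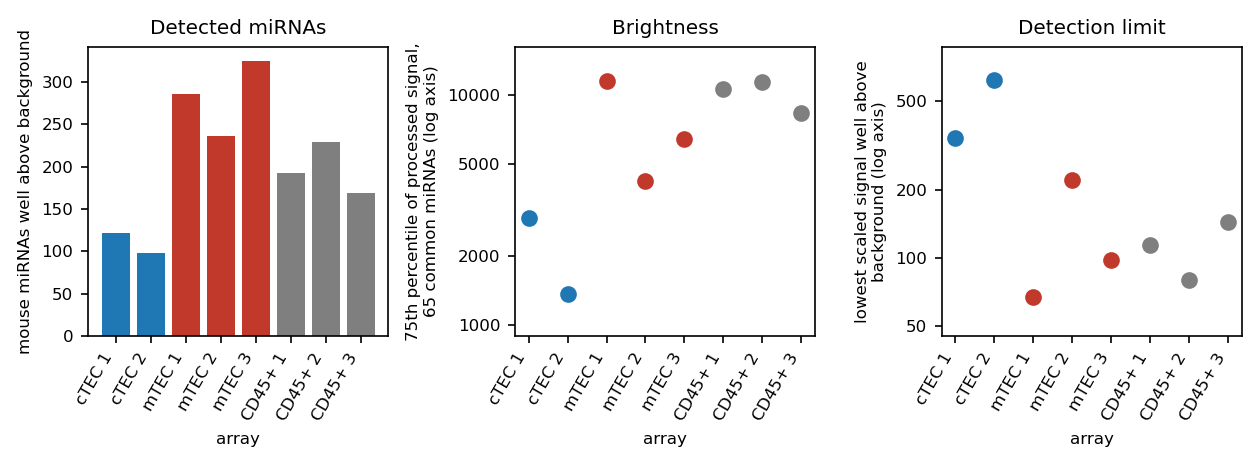
Number of mouse miRNAs well above background (left, bars), 75th percentile of the processed signal over 65 common miRNAs before scaling (middle, log axis) and lowest scaled signal well above background (right, log axis) on each array, coloured by group. The cTEC arrays detected 122 and 98 miRNAs, fewer than any other array, and had the highest detection limits, 342 and 621.

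Of the 309 tested miRNAs, 70 differed between mTEC and cTEC (limma, Benjamini-Hochberg adjusted p under 0.05), which is 22.7% of those tested. In mTEC 50 were higher (16.2%) and 20 lower (6.47%), 37 and 16 of them by over 1 on the log2 scale. This split depended on the processing. Quantile normalization gave 32 higher and 37 lower, normexp 45 and 156, and the median floor 70 and 60. It also moved when cTEC replicate 1 was left out, with the floor kept at the detection limit of the lone cTEC array. All 70 were without overlap between the 3 mTEC and the 2 cTEC arrays, while over all tested miRNAs 18.4% lay higher in mTEC and 11.7% lower without overlap. The arrays lay in slide row 1 (1 array of each group) and slide row 2 (2 mTEC arrays and 1 cTEC array), and with slide row as a block 67 differed, 66 of them among the 70. Of the 71 miRNAs that every epithelial array measured well above background, 35 differed (49.3%), 17 higher and 18 lower. The 50 higher miRNAs were well above background on all 3 mTEC arrays, and in cTEC on both arrays for 17, on 1 for 23 and on neither for 10. The 20 lower miRNAs were well above background on both cTEC arrays. Pearson's r of the floored log2 signal over the 309 miRNAs, which are not independent replicates, was 0.966 between the cTEC arrays, 0.982 to 0.988 between mTEC arrays and 0.787 to 0.894 between the groups. Of the 309, 83 were at the floor on every array, so these r rest in part on shared floor values. The labels call the samples biological replicates, and p-values measure the spread between so few pools. Where both cTEC signals lay under the floor, as for miR-34a and miR-103, they were set to it and added little or no spread. Those p-values rest on the spread of the other arrays.

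**Figure D2:**
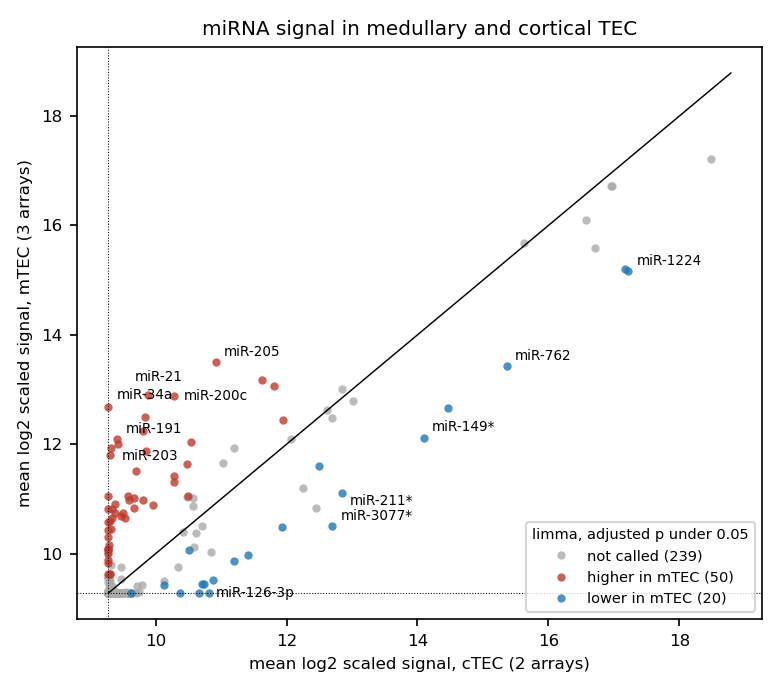
Mean log2 scaled signal of the 309 tested miRNAs in cTEC (x axis, 2 arrays) and mTEC (y axis, 3 arrays). Dotted lines mark the floor of 9.28, the solid line equal signal, and colours the 50 miRNAs higher and the 20 lower in mTEC by limma. Many of the higher miRNAs lie along the cTEC floor.

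Epithelial miRNAs were mostly higher in mTEC. Of 12 listed, all tested, 9 were higher in mTEC, against 16.2% of all tested, 0 lower, and the median log2 fold change was 2.11, against a median of 0 over all tested miRNAs. The 9 comprised the 5 members of the miR-200 family, miR-203, miR-205, miR-375 and miR-182. Of these, miR-429, miR-203, miR-375 and miR-182 passed the filter through the mTEC arrays alone, so that they could only differ upwards, and setting their other signals to the floor took out the spread there. miR-200a, well above background on 1 cTEC array, also needed its mTEC arrays to pass the filter. miR-200b, miR-200c and miR-205 were measured on all 5 epithelial arrays, and the median of the list stayed above 0 under each scaling (1.09 from the deposited table to 3.82 with no normalization). Both cTEC arrays measured only these 3 of the 12, so the count of 9 and the median rest in part on the filter and the floor. The summed scaled signal of all 12 was 9496 and 6292 in cTEC, 41633 to 43604 in mTEC and 1454 to 1491 in CD45+ cells, and with signals not well above background counted as 0 it was 7902 and 2701 in cTEC, so both epithelial populations exceeded the CD45+ cells. miR-200c had scaled signals of 8216, 8074 and 6606 in mTEC against 1636 and 946 in cTEC. Its lowest mTEC array stood well above its highest cTEC array, and the fitted log2 fold change was 2.61 (SE 0.23, limma adjusted p = 0.000425). miR-200b, which has the same seed, was at 5221, 5198 and 4237 in mTEC and at 1066 and 757 in cTEC. These are the 2 family members that both cTEC arrays measured, and miR-200b rose by 2.44 (SE 0.16, limma adjusted p = 0.000157). miR-200a gave 4590.0, 4038 and 3728 in mTEC, and 734 and 471 in cTEC, where only replicate 1 was well above background (log2 fold change 2.58). miR-141 gave 5123, 3776 and 2419 in mTEC, the widest spread of the family there, and 609 and 374 in cTEC (log2 fold change 2.51). The third carrier of the miR-200b seed, miR-429, was not well above background on either cTEC array, and its mTEC signals of 2321, 2256 and 1874 were at least 4.64-fold higher.

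miR-205 and miR-203, the miRNAs of stratified and glandular epithelium, differed in how firmly cTEC could be placed. For miR-205 the mTEC arrays stood at 9958, 11518 and 13578, while the cTEC arrays stood at 3856 and 997. The groups did not overlap, but on the log2 scale the cTEC arrays differed from each other by more than the mTEC arrays did. The fitted log2 fold change was 2.58 (SE 0.54, limma adjusted p = 0.0176), with 1.37 within slide row 1 and 3.68 within slide row 2. The call held under 20 of 27 alternatives and was lost, for example, with the 5 epithelial arrays fitted alone (adjusted p = 0.0932) or without mTEC replicate 2 (0.0559) or mTEC replicate 3 (0.0541). Without cTEC replicate 2 the log2 fold change was 1.59. miR-203 was at 3631, 3840.5 and 4356 in mTEC and not well above background on either cTEC array. Its bound was at least 7.83-fold, the highest among the 10 called miRNAs that cTEC did not show. miR-375, known from endocrine and secretory epithelium, reached 1816, 1852 and 1745 in mTEC, at least 3.91-fold higher. miR-182, of the sensory organ cluster with miR-183 and miR-96, was at least 3.01-fold higher, at 1292, 1377 and 1505 in mTEC. Its cluster partners miR-183 and miR-96 did not pass the test with the floor of 621, near which their mTEC signals lay. Neither was well above background in cTEC, and their bounds were at least 1.46-fold for miR-183 and 1.34-fold for miR-96. Under each of the 3 lower floors, 11 of the 12 listed epithelial miRNAs were called higher. miR-31, a further epithelial miRNA, was under the floor in both groups. Unlike the sum of the list it stood higher in CD45+ cells, at 570, 668 and 617, than on any epithelial array.

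The largest fitted rise was that of miR-34a. Its scaled signals were 8139, 6334 and 5487 in mTEC, 449 and 490 in cTEC, and 1920, 1859 and 1731 in CD45+ cells. mTEC was thus above both other populations on every array, and cTEC was well above background on replicate 1 alone. The log2 fold change was 3.40 (SE 0.16, limma adjusted p = 4.35e-05). Both cTEC signals of miR-34a were set to the floor, so this SE holds no spread between cTEC arrays. Its seed relatives miR-34b-5p, miR-449a and miR-449c, which are known from ciliated cells, did not pass the test. In mTEC miR-34b-5p and miR-449c lay under the floor on every array, so a rise could not be called. miR-449a was not well above background on either cTEC array, and its bound was at least 1.32-fold. miR-21, an abundant miRNA of activated and proliferating cells, was at 8442, 7948 and 6621 in mTEC, 1249 and 710.0 in cTEC, and between 11860.1 and 14579 in CD45+ cells. It was measured on all 5 epithelial arrays and rose by 3.02 (SE 0.25, limma adjusted p = 0.000329). miR-191 was at 4310.3, 4297 and 4622 in mTEC and at 752 and 453 in cTEC, with a log2 fold change of 2.69. Its neighbour within Dalrd3 on chromosome 9, miR-425, was at least 2.33-fold higher in mTEC. miR-29a, which represses collagens and other matrix genes, was at 7539, 5294 and 4895 in mTEC and at 1345 and 549.8 in cTEC (log2 fold change 2.66). miR-29b (log2 fold change 0.32) and miR-29c, with the same seed, did not pass the test. miR-29c, at 282 to 369 in mTEC, lay under the floor, where no rise could be called.

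**Figure D3:**
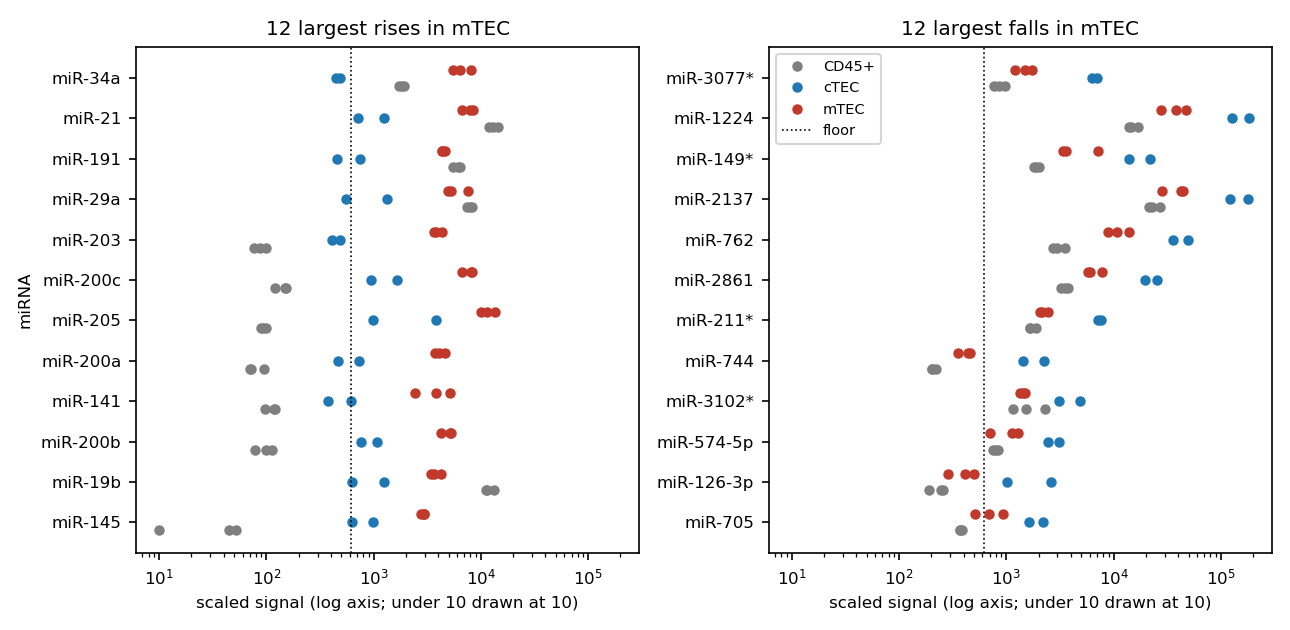
Scaled signal (x axis, log) on each array for the 12 miRNAs with the largest rises (left) and the 12 with the largest falls (right) in mTEC, with the floor of 621 as a dotted line. In each row the mTEC points do not overlap the cTEC points, and for the falls on the right the CD45+ points lie below the cTEC points.

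All 6 tested miRNAs of the miR-17 seed were higher in mTEC, against 16.2% of all tested. The calls of miR-20a, miR-93, miR-20b and miR-106a were lost with quantile normalization, and also with the 75th percentile over all mouse miRNAs. miR-17 had scaled signals of 1947, 1951 and 2150.2 in mTEC against 862 and 661 in cTEC (log2 fold change 1.38, SE 0.10, limma adjusted p = 0.000224). miR-20a of the same cluster, whose products promote lymphocyte and progenitor growth, rose by 1.16, and miR-93 and miR-106b of the cluster within Mcm7 rose by 1.24 and 1.13. The X-linked miR-20b and miR-106a rose by 0.34 each, from cTEC signals under the floor, and held their call in 13 and 9 of 26 alternatives. Of the other seeds in these clusters, miR-19b rose by 2.02 and miR-25 by 0.32, the latter a call that held in 12 of 26 alternatives. Neither miR-19a (log2 fold change 0.28) nor miR-18a passed. No cTEC array measured miR-18a well above background, and its bound was at least 1.31-fold. miR-92a, which shares its seed with miR-25, at 1069 to 1514 in mTEC and 1333 and 1863 in cTEC, did not pass either (log2 fold change -0.23, 95% confidence interval -0.72 to 0.27). CD45+ cells had more than mTEC of all 6 carriers, as miR-17 shows with 6533 to 7206. This order held for 30 of the 50 miRNAs higher in mTEC, and the other 20 were lower in CD45+ cells than in mTEC.

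The 5 members of the miR-23, miR-24 and miR-27 group, transcribed as clusters on chromosomes 8 and 13, were all higher in mTEC, against 16.2% of all tested. Their log2 fold changes ran from 0.74 for miR-27b to 1.50 for miR-24. miR-23a, which both groups measured on every array, was at 2017, 2967 and 2730 in mTEC and 1386 and 1133 in cTEC. miR-24 was at 3829, 4188 and 4650 in mTEC against 2310 and 956 in cTEC, again with the lower value on cTEC replicate 2. Its log2 fold change was 0.87 without that array and 2.14 without cTEC replicate 1. The call of miR-23a held in 20 of 28 alternatives and that of miR-24 in 15, and both were lost with the 5 epithelial arrays fitted alone, where 3 of the 5 members were called, and with quantile normalization, where 2 were. Among miR-30 miRNAs, 4 of 5 were higher, against 16.2% of all tested, from 1.11 for miR-30b to 1.49 for miR-30c. However, 0 of 5 were called with quantile normalization, and 2 with the all-miRNA percentile and from the deposited values. miR-103 and miR-107, which share a seed and lie in pantothenate kinase genes, rose by 1.29 and 1.30. In the let-7 family, repressors of growth genes such as Hmga2, 4 of 9 tested members were higher, against 16.2% of all tested, with a list median of 0.48, and 0 were with the all-miRNA percentile or with quantile normalization, which called 1 lower. let-7i was at 2593, 1851 and 1753 in mTEC and 962 and 848 in cTEC (log2 fold change 1.17), and let-7g rose by 0.93, whereas the 0.48 of let-7a and 0.56 of let-7d held in 13 and 8 of 28 alternatives. The most even member was let-7b, at 7329, 6081 and 5756 in mTEC and 7456 and 5321 in cTEC, with a log2 fold change of 0.013 (95% confidence interval -0.45 to 0.47). let-7c was at 9356, 8212 and 7429 against 8721 and 6235 (0.17, interval -0.29 to 0.63). let-7e was the member with the lowest fold change, -0.31, and with quantile normalization the list median was -0.076. miR-16 was at 9309.7, 9799.7 and 8738 in mTEC and at 5144 and 1958 in cTEC, and rose by 1.55 (limma adjusted p = 0.0325). That call held in 16 of 28 alternatives, and the log2 fold change was 0.85 without cTEC replicate 2 and 2.25 without cTEC replicate 1. Of the 8 miRNAs listed with it for their related seeds, 3 were higher in mTEC, namely miR-16, miR-103 and miR-107, against 16.2% of all tested, and 0 were lower. Of 6 widely expressed miRNAs 5 were higher, against 16.2% of all tested, with a median log2 fold change of 0.97, though the call of miR-22 held in 14 of 28 alternatives. Of the miR-26 pair miR-26a was higher (1.15), a call that held in 15 of 28 alternatives and was lost with the 5 epithelial arrays alone. The log2 fold change of miR-26a was 0.66 without cTEC replicate 2 and 1.63 without cTEC replicate 1. Neither miR-125 member passed.

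**Figure D4:**
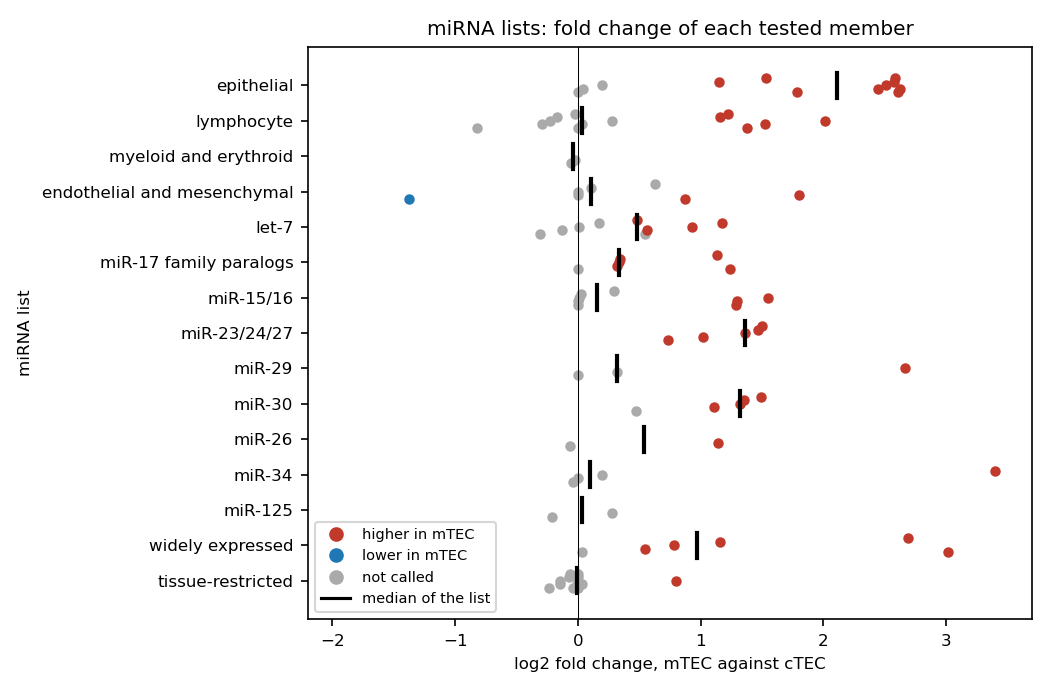
Log2 fold change of mTEC against cTEC (x axis) for each tested member of 15 miRNA lists, coloured by its call, with the median of each list as a vertical bar. Epithelial members lie at or to the right of 0, and 1 listed member, miR-126-3p, was lower in mTEC.

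Lymphocyte miRNAs were measured because thymocytes surround both cell types. Of 13 listed and tested, 5 were higher in mTEC, against 16.2% of all tested, and 0 lower, with a median log2 fold change of 0.030. The 0 rests on the floor and the scaling, since each of the 3 lower floors gave 7 higher and 2 lower (miR-150 and miR-181b), quantile normalization 2 and 3, normexp 5 and 4, and leaving out cTEC replicate 2 gave 5 and 2. The 5 were miR-17, miR-19b, miR-20a, miR-146a and miR-155, none of them limited to lymphocytes. miR-146a, a brake on NF-kB signalling, was at 2136, 1799.8 and 1849.6 in mTEC and at 419 and 687 in cTEC. It rose by 1.52 (SE 0.12, limma adjusted p = 0.000255), and the level in mTEC overlapped the 1716 to 2032 of CD45+ cells. miR-155, induced in activated immune cells, was at 2184, 1599 and 1308 in mTEC and 345 and 820.4 in cTEC (log2 fold change 1.22). Its call held in 22 of 28 alternatives and was lost, for example, with quantile normalization and with the 5 epithelial arrays fitted alone. The miRNAs most typical of the lineage did not pass with the floor of 621, below which many of their epithelial signals lay. miR-181a, highest in immature thymocytes, was at 1251, 875 and 1033 in mTEC and at 3615 and 961 in cTEC, against 12428 to 13724 in CD45+ cells. cTEC replicate 1 stood above the mTEC arrays and replicate 2 among them, with a log2 fold change of -0.82 (95% confidence interval -2.14 to 0.49, limma adjusted p = 0.395). miR-142-3p, made by all blood cells, was at 300 to 549.5 in mTEC and not well above background in cTEC, against 2792 to 5553 in CD45+ cells. miR-150 of mature lymphocytes was at 297 to 342 in mTEC, 542 and 769 in cTEC and 3119 to 3971 in CD45+ cells, and miR-181b was at 233 to 292 in mTEC, 895 and 569 in cTEC and 2575 to 2903 in CD45+ cells. For both, the mTEC and cTEC arrays did not overlap before flooring, with cTEC the higher. However, miR-181b was well above background on cTEC replicate 1 alone, and its 569 lay under the detection limit of cTEC replicate 2. The summed scaled signal of all 13, 11337 and 9519 in cTEC and 15262 to 17470 in mTEC, was under the 62520 to 71310 of CD45+ cells. The part of thymocyte RNA in the epithelial differences was not tested.

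A few vessel and stroma miRNAs were called, in either direction. miR-126-3p, the endothelial miRNA within Egfl7, was at 503, 285 and 416 in mTEC and at 2615 and 1013 in cTEC. It was the only listed miRNA lower in mTEC (log2 fold change -1.38, SE 0.37, limma adjusted p = 0.0421), and the call held in 14 of 28 alternatives. Within slide row 1 the difference was -2.07 and within slide row 2 -0.69, and the call was lost with slide row as a block. miR-145, of smooth muscle and fibroblasts, was at 2771, 2978 and 2977 in mTEC and at 978 and 631 in cTEC, a rise of 1.80 (SE 0.12, limma adjusted p = 0.000167). miR-143, made from the same transcript, was at 3454, 3158 and 3046 in mTEC, but at 3842 and 1164 in cTEC, on either side of the mTEC arrays (log2 fold change 0.62, 95% confidence interval -0.53 to 1.78, limma adjusted p = 0.466). The result rests on which cTEC array is used, since miR-143 rose by 1.50 without cTEC replicate 1 (limma adjusted p = 6.46e-05) and had a log2 fold change of -0.26 without cTEC replicate 2 (limma adjusted p = 0.0773), the lone cTEC array being assumed to vary like the others. Of the list, 7 of 12 miRNAs on the array were tested, and 2 were higher and 1 lower, against 16.2% and 6.47% of all tested. With so few members these counts do not set the list apart. miR-126-5p, miR-199a-3p, miR-199a-5p, miR-10a and miR-127, well above background on none of the 5 epithelial arrays, were not tested. Of 5 myeloid and erythroid miRNAs 2 were tested and 0 called, against 22.7% called of all tested. The part of vessel or stromal cells in these values was not tested. Of 19 listed miRNAs that are restricted to other tissues, 13 were tested, and 1, miR-194 of gut and liver epithelium, was higher in mTEC, at least 2.35-fold, against 16.2% higher of all tested. None was lower, but normexp called 8 lower, the median floor 3, and leaving out cTEC replicate 1 called 6. It was at 1035, 1124 and 1092 in mTEC and not well above background in cTEC, as was its relative miR-192 at 405 to 502 in mTEC, under the floor.

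The 20 miRNAs lower in mTEC were of another kind, and apart from miR-126-3p they belong to none of the lists. miR-3077* had scaled signals of 1209, 1485 and 1723 in mTEC and 6950.2 and 6355 in cTEC, and fell by 2.19 on the log2 scale (SE 0.17, limma adjusted p = 0.00026). miR-1224 was at 27706, 37846 and 47269 in mTEC and 127517 and 183538 in cTEC (log2 fold change -2.06). miR-149* was at 3390.5, 3625 and 7182 against 13938 and 21885 (-1.97). The groups stood apart on every array for each of these, and CD45+ cells had less than cTEC of all 20 and less than mTEC of 19. miR-211*, from an intron of Trpm1, was the tightest of the large falls, with 2162, 2048 and 2458 in mTEC and 7572 and 7105 in cTEC (-1.73, SE 0.10, limma adjusted p = 7.11e-05). The log2 fold changes of miR-2137, miR-762 and miR-2861 were -1.96, -1.93 and -1.79. miR-744 had 1436 and 2264 in cTEC and 356 to 456 in mTEC, which is below the floor (-1.54), and miR-346* had 1089 and 1637 against 167 to 262 (-1.10). For miR-3102*, miR-574-5p and miR-705 the values were -1.45, -1.44 and -1.36. miR-714 marked the 75th percentile on both cTEC arrays, so its cTEC value of 5776 is set by the scaling itself.

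The 20 falls depended on the scaling. Among the 71 miRNAs measured on all 5 arrays, the 18 that were lower in mTEC had a median unscaled log2 difference, mTEC minus cTEC, of 0.076 (range -0.42 to 1.31), so that most of these probes were about as bright on the cTEC arrays as on the mTEC arrays. The 17 higher ones had a median unscaled difference of 3.02 (2.25 to 4.78), the 36 not called 1.30, and the scaling factors themselves differed by 1.77. With the 75th percentile taken over all mouse miRNAs, 32 of the 50 rises and 0 of the 20 falls were called again, and with no normalization 50 and 0. From the deposited quantile-normalized values, 39 and 16 were, and with quantile normalization of the processed signals 29 and 18. The 25 rises that held under every alternative that tested them, other than array weights, included miR-34a, miR-21, miR-191, miR-29a, miR-141 and miR-200a to miR-200c. They also included miR-203, miR-375, miR-429 and others that no cTEC array measured, for which the floor allowed no other direction, so that holding says little there. Of the falls, 10 held under every alternative that tested them apart from array weights, the 75th percentile over all miRNAs and no normalization, among them miR-3077*, miR-1224, miR-2137, miR-211*, miR-744 and miR-705. The order between miRNAs (the rises above the falls) does not depend on the scaling factor, but the place of 0 does.

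The falls also shared a base composition that played no part in their choice. The G and C share of the bases by which the probe pairs with its miRNA, without the T tail and the first G, had a median of 70.5% in the 20 lower miRNAs, 47.7% in the 50 higher, 47.6% in the 239 not called and 50% in all 1040. In the 71, the median share was 70.5% for the 18 lower, 40.9% for the 17 higher and 56.3% for the 36 not called. A run of GGG in the sense of the miRNA, searched on that strand only, occurred in 16 of the 20 lower (80%), in 8 of the 50 higher (16%) and in 24.9% of all 1040, and GGGG in 12 of the 20 (60%) against 7.40% of all. Within the 71, GGG occurred in 77.8% of the lower, 23.5% of the higher and 27.8% of those not called. For GGGG the shares were 55.6%, 5.88% and 11.1% in the same order. Exceptions were miR-1187 and miR-574-5p, of alternating U and G, and miR-126-3p, the 3 called falls under 50% G and C among the 71. Of the 17 miRNAs at 70% or more within the 71, 9 were lower, 0 higher and 8 not called, with a median unscaled log2 difference of 0.71. The 25 miRNAs under 50% had a median unscaled difference of 2.32, with 12 higher and 3 lower. The difference before scaling was thus smaller where the share of G and C was higher, and the part of base composition in the falls was not tested.

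**Figure D5:**
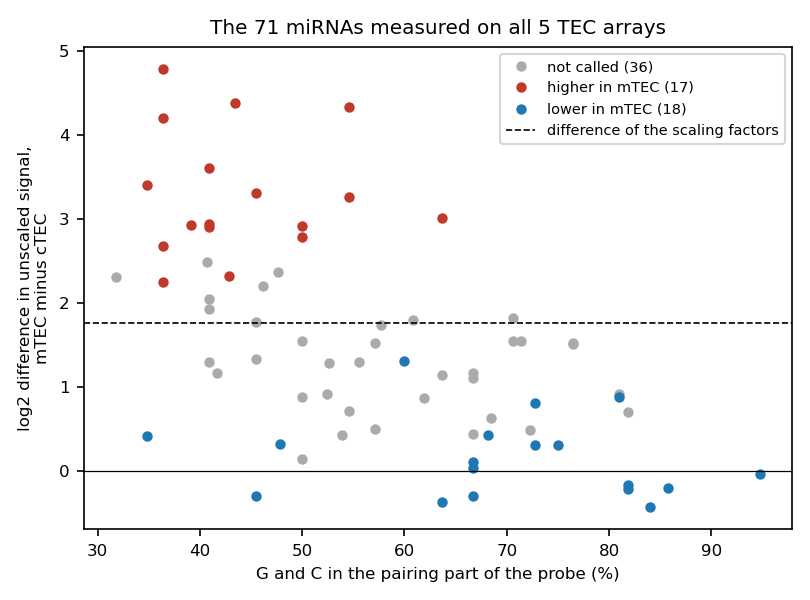
Share of G and C in the pairing part of the probe (x axis, percent) and difference of mean log2 signal before scaling, mTEC minus cTEC (y axis), for the 71 miRNAs measured on all 5 epithelial arrays. The dashed line marks the difference of the scaling factors, 1.77, and the 18 miRNAs lower in mTEC lie below it at differences of -0.42 to 1.31.

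Several of the brightest miRNAs did not pass the test. The 5 with the highest mean signal on the epithelial arrays were miR-2145, miR-1937a, miR-1937b, miR-1224 and miR-2137, and the latter 2 fell, as given above. miR-2145 was at 92119, 203847 and 187561 in mTEC and 308687 and 438009 in cTEC, without overlap (log2 fold change -1.27, SE 0.38, limma adjusted p = 0.0639), and passed under 10 alternatives. miR-1937a was at 72122, 159379 and 110318 in mTEC and at 89619 and 185781 in cTEC. Its mTEC and cTEC arrays overlapped (log2 fold change -0.25, 95% confidence interval -1.29 to 0.78), as did those of the near-identical miR-1937b. miR-125b-5p, abundant in many epithelia and scarce in CD45+ cells, was at 6227, 5159 and 5776 in mTEC and 8675 and 5048 in cTEC (-0.21, interval -0.76 to 0.33).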

How the data were processed

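Total RNA of sorted cells was labelled with Cy3 and hybridized to 8 single-colour arrays of 1 slide. Spot intensity was deposited per array as written by Feature Extraction 10.7.3.1 (version from the file headers). For 1040 mouse miRNAs the authors deposited quantile-normalized log2 values as well. That table also holds the authors' own group means, fold changes and p-values, which were not used. The submitters' processing notes name limma; the genome build is not given in the sources used here.

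Processed signals were taken in R 4.3.3, outlier spots were dropped, and signals were scaled by the 75th percentile of the 65 mouse miRNAs that were well above background (most of 5 spots) on every array. Values were floored at 621, turned to log2 and averaged per miRNA. The floor was chosen after signals had been seen. limma 3.58.1 (lmFit, eBayes) fitted the 3 group means on all 8 arrays, with 5 residual degrees of freedom, and Benjamini-Hochberg adjustment covered all 309 tested miRNAs, of which 83, at the floor on every array, entered as not different. Bounds ("at least") took, for each cTEC array, the higher of its detection limit and the miRNA's own signal there. The number of arrays limits the precision. The fit was tested on simulated data.

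The members, lists and rules were chosen with earlier results of these data known. miRNAs were named when the study's text names them, when among the 12 largest non-overlapping rises or falls or the 5 brightest, or as called list members; other members are named where a list or seed is described.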

Additional observations from a re-analysis of the deposited data

Results flagged for a closer look

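Besides the 1040 mouse miRNAs of the deposited table, the arrays carry 2648 other probes whose names are not used here. Of these, 143 were well above background on all 5 epithelial arrays, a signal outside the comparison above, while 0 of the 385 negative control spots of these arrays were. As for the mouse miRNAs, 64 were well above background on 3 mTEC and 0 cTEC arrays and 0 the other way round. The scaled log2 difference, mTEC minus cTEC, was below -1 for 57 of the 143 and above 1 for 16, with a median of -0.68, and the median before scaling was 1.09.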

How the results depend on the processing

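The 70 differences (50 higher and 20 lower in mTEC, 35 among the 71 measured on all 5 epithelial arrays) were recounted under 20 alternatives and with each of the 8 arrays left out. With the 75th percentile over all mouse miRNAs, 39 differed, 1 lower, and 10 of the 71. Quantile normalization gave 32 higher and 37 lower, no normalization 0 lower. Normexp gave 201, 156 lower. Lower floors, the second highest, the median and the lowest, gave 35, 60 and 57 lower, the last 2 with 130 and 129 in all. Testing only miRNAs well above background on all 8 arrays gave 38, 16 higher, and on all 5 epithelial arrays 42, 19 higher. No filter left 23 of the 71, and the 5 epithelial arrays alone 13 lower and 19 of the 71. Array weights, whose estimation did not converge, gave 2 calls, 0 higher and 2 lower, and 1 of the 71. With single arrays left out the total ran from 58 to 147, the higher from 39 to 47, the lower from 18 to 100 and those of the 71 from 26 to 43. The highest lower count came without cTEC replicate 1, which leaves 1 cTEC array, assumed to vary like the others. That fit kept the floor of 621, the detection limit of the remaining cTEC array. A miRNA at the floor elsewhere had almost no spread, so a small excess on that array could be called a fall. The cause was not tested.

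The share of higher among the calls, 71.4%, was 97.4% with the all-miRNA percentile, 62.7% with that over the 71, 46.4% with quantile and 100% with no normalization. The median log2 fold change over all tested miRNAs moved to 0.41 with no normalization, -0.97 with normexp and -0.31 and -0.33 with the median and lowest floors. Of 1672 values of the 62 miRNAs named by the rule, 1381 kept sign and side of the threshold, 260 lost a call, 11 gained one and 20 changed sign. The 20 were miR-211* (0.038), miR-3102* (0.32), miR-574-5p (0.33), miR-705 (0.31) and miR-2145 (0.49) with no normalization, let-7d with quantile normalization (-0.13), miR-143 with it (-0.011) and without cTEC replicate 2 (-0.26), and miR-1937a and miR-1937b with the all-miRNA percentile (0.78 and 0.80), quantile (0.35 and 0.49), no normalization (1.51 and 1.53), the deposited values (0.27 and 0.34), without cTEC replicate 2 (0.27 and 0.30) and without mTEC replicate 1 (0.040 and 0.051). With single arrays left out these ran from -0.26 to 1.50 for miR-143, -0.78 to 0.27 for miR-1937a and -0.77 to 0.30 for miR-1937b.

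When a replicate block was fitted, 60 differed, 42 higher and 18 lower, and 59 of these were among the 70 in the same direction. The calls lost included miR-205 (log2 fold change 2.52, limma adjusted p = 0.0639), miR-16, miR-23a, miR-24, miR-26a and miR-126-3p. Equal numbers did not deviate together in every pair (r from -0.23 to 0.28), so the numbers were not taken to pair the samples. A median over the 65 miRNAs, an alternative added after the data had been seen, gave 65.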
